A study of Mus musculus with 9 samples.

Results

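The endoplasmic reticulum (ER) stress and folding genes described here are 10 genes chosen by name, and all 10 were among the 3958 genes of the deposited table. They are Hspa5, Hsp90b1, Dnajb11, Dnajb9, Calr, Pdia4, Pdia6, Herpud1, Manf and Xbp1. They were measured by RNA sequencing in 9 libraries of adipose tissue, all from male mice of the common inbred strain C57BL/6J at day 21. The EA group (electroacupuncture, a current passed through acupuncture needles, on a high-fat diet by the series design) holds libraries EA 5, EA 7 and EA 8. The MPX group holds MPX 2, MPX 5 and MPX 7, and the CPX group holds CPX 4, CPX 6 and CPX 8. By the design text the mice without electroacupuncture had either a normal or a high-fat diet, but the labels do not tie the prefixes MPX and CPX to a diet, and age and fat depot are not given. Whether the libraries come from separate mice is not stated, so each p-value reflects library-to-library spread, which may be technical.

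The ER is where secreted and membrane proteins are folded. When unfolded chains build up there, the sensors ATF6, IRE1 and PERK, which the chaperone encoded by Hspa5 otherwise keeps inactive, start the unfolded protein response. ATF6 and the spliced form of XBP1 then raise transcription of chaperones, disulfide isomerases and degradation factors, while PERK slows translation and favours ATF4 and its targets. Cells with a heavy secretory output, such as plasma cells that make antibody, express this set strongly, and adipocytes and fibroblasts secrete large amounts of adipokines and collagen. Counts per gene do not tell spliced from unspliced Xbp1 RNA, nor do they show sensor activity.

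The listed counts per library ran from 12115183 to 14208853, and levels are given as CPM, that is, counts scaled by each library's listed total and its TMM factor. The table holds the most abundant genes only, so these totals are not sequencing depths. The 10 genes ranked from 167 to 3897 by total count, with 8606 to 84955 counts over the 9 libraries, so counting error is small beside the spread between libraries. Adipocyte markers were present in every library, with 18 of 19 listed, but their summed level was 8962 CPM in CPX 6 against 35460 to 99720 CPM in the other 8 libraries. CPX 6 stood apart, with Spearman's correlations across genes of 0.19 (CPX 4) to 0.74 (EA 8) to the other libraries, and CPX 4 had the lowest TMM factor (0.753, against 0.981 to 1.1). For the 10 genes, results that rest on CPX 6 or on EA 8, the library with the highest levels of these genes, are given below with and without them. The other gene lists and their genes are given with all 9 libraries only, so how far they rest on EA 8 or CPX 6 was not tested.

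The classical response genes carry the ER stress element (ERSE), a binding site for ATF6 with NF-Y, in their promoters. The ERSE was searched on both strands as CCAAT, 9 free bases and CCACG, and the variant ERSE-II as ATTGG, 1 free base and CCACG. RefSeq promoter windows (GRCm38.p6, from 250 bases before to 50 after the start site) matched 9 of the 10 genes; Manf had no entry. Of these 9, 4 held an ERSE on either strand (Hspa5, Hsp90b1, Calr and Pdia6) and 2 others an ERSE-II (Herpud1 and Dnajb11). Among all 32851 windows 39 (0.119%) held an ERSE and 12 (0.0365%) an ERSE-II. Among the 4074 windows of listed genes, members included, these were 9 (0.221%) and 4 (0.0982%). Such elements are known from classical response genes like these 10, so the matches are a description and not an enrichment found here. Pdia4, Dnajb9 and Xbp1 held no exact match to either sequence in this window. The Pdia4 window (chr6:47813463-47813762, minus strand) lies wholly before the gene as annotated with the counts (chr6:47796141-47813430). A match between that window and the gene, or within the gene, would be missed. Only exact letters were searched, so elements that differ from them by a base were not counted. The UPRE, TGACGTGG, searched on both strands and known as a site for XBP1 and ATF6, occurred in 0 of the 9 windows. It was found in 222 of all windows (0.676%) and in 39 of those of listed genes (0.957%). The 250 bases before the start site are shown for 3 of these promoters, with each exact match in capitals. They hold 1 exact ERSE, 2 exact copies of it, and the variant element. The Hspa5 promoter lies at chr2:34771840-34772089 (plus strand), that of Hsp90b1 at chr10:86705445-86705694 (minus strand), and that of Herpud1 at chr8:94386179-94386428 (plus strand), each read 5′ to 3′ along the gene.
Hspa5: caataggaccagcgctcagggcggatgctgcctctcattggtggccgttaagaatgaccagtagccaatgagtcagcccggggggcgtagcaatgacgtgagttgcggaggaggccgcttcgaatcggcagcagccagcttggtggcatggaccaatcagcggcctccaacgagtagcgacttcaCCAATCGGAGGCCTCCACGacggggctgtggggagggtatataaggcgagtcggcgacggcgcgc
Hsp90b1: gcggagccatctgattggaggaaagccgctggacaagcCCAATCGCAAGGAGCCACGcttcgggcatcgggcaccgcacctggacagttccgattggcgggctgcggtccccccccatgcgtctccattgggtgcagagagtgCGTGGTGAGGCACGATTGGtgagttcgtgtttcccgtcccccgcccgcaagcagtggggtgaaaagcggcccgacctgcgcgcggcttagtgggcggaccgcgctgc
Herpud1: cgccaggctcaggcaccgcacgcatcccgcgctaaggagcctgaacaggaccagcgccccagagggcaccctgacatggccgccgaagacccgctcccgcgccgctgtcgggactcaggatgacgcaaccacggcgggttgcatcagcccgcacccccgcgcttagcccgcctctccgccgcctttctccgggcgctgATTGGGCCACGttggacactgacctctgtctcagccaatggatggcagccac
Hsp90b1 held 2 copies in opposite orientation, of which the one nearer the start reads as the reverse complement. In Hspa5 the element spans 65 to 47 bases before the start, and in Herpud1 52 to 42 bases before it. The remaining elements are shown alone. That of Calr (chr8:84847075-84847093) is on the other strand, that of Pdia6 is at chr12:17266491-17266509, and that of Dnajb11 (chr16:22857852-22857862) lies 8 to 18 bases after the start.
Calr: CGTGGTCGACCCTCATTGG
Pdia6: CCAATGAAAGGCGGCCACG
Dnajb11: ATTGGCCCACG
A match of letters is a description of the sequence and does not show that a factor binds there.

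Across the 9 libraries the MPX group stood lowest on the mean of the genes, while the high end rested on single libraries, EA 8 and CPX 6. Set as the mean over the 10 genes of log2(CPM + 1), centred on each gene's own mean, EA 8 stood highest at 0.82 and CPX 6 next at 0.45. CPX 4 (-0.01), CPX 8 (-0.03), EA 5 (-0.04) and EA 7 (-0.16) followed, and MPX 2 (-0.22), MPX 7 (-0.29) and MPX 5 (-0.51) came last. For 9 of the 10 genes EA 8 was the highest library, for the 10th, Hsp90b1, it was CPX 6, and for 7 of the 10 MPX 5 was the lowest. All 10 genes were more than 1.5 times as high in EA 8 as the mean of EA 5 and EA 7 (median ratio 1.89), as were 9.78% of all listed genes. In CPX 6, 5 of the 10 were above 1.5 times the mean of CPX 4 and CPX 8 (median ratio 1.47), against 29.5% of all listed genes. In bulk tissue, fewer cells of a type and less RNA per cell cannot be told apart.

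**Figure D1:**
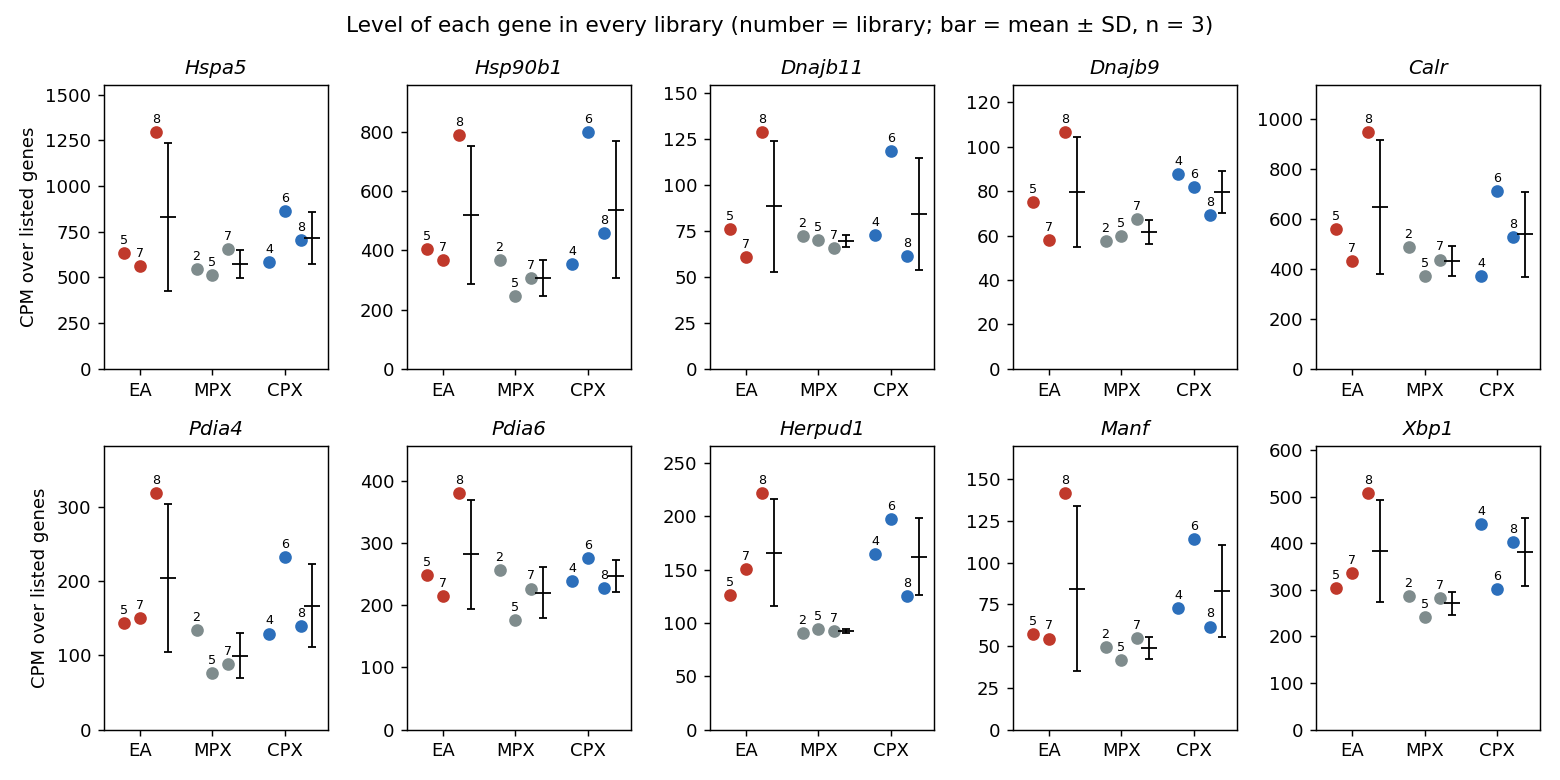
CPM of each of the 10 genes (vertical axis, from 0) in the 9 libraries, by group, with library numbers beside the points and the group mean ± SD (n = 3) to the right of each group. EA 8 is the top point in 9 panels and CPX 6 in the Hsp90b1 panel, and MPX 5 is the lowest point in 7 panels.

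Among the chaperones, Hspa5, which encodes BiP, the ER form of Hsp70, measured 635, 562 and 1294 CPM in EA 5, EA 7 and EA 8, against 547, 515 and 657 CPM in MPX 2, MPX 5 and MPX 7 and 584, 864 and 703 CPM in CPX 4, CPX 6 and CPX 8. The EA and MPX ranges overlapped, with EA 5 and EA 7 below MPX 7 and EA 8 far above every MPX library. Hsp90b1, which encodes the ER form of Hsp90 (GRP94), measured 404, 367 and 790 CPM in EA, against 369, 245 and 308 CPM in MPX and 355, 799 and 460.5 CPM in CPX, in the same order of libraries. Its EA 8 and CPX 6 values lay together, far above the other 7 libraries. Dnajb11, a J-domain helper of BiP, measured 76.1, 60.9 and 128.8 CPM in EA, against 72.3, 70.2 and 66.0 CPM in MPX and 73.0, 118.8 and 61.3 CPM in CPX. Only EA 8 and CPX 6 stood out for it, and EA 7 was its lowest library. Dnajb9, another J-domain partner of BiP, measured 74.9, 57.8 and 106.5 CPM in EA, against 57.4, 59.6 and 67.6 CPM in MPX and 87.9, 81.9 and 69.1 CPM in CPX. It had the smallest span, 1.86-fold between its highest and lowest library, and all CPX values lay above all MPX values.

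Calr, a calcium-binding chaperone that holds glycoproteins, measured 561, 432 and 945 CPM in EA, against 487.5, 370.0 and 437 CPM in MPX and 372, 712 and 528 CPM in CPX. Its groups overlapped, with EA 8 and CPX 6 again on top. Pdia4 and Pdia6 are disulfide isomerases, which form and rearrange disulfide bonds. Pdia4 measured 143, 151 and 319 CPM in EA, against 134, 75.9 and 89.1 CPM in MPX and 129.5, 232 and 140.2 CPM in CPX, a 4.20-fold span from MPX 5 to EA 8 that was the widest of the 10. Every EA value of Pdia4 lay above every MPX value, by 143 against 134 CPM at the closest. Pdia6 measured 249.5, 215.5 and 381 CPM in EA, against 257, 176 and 227 CPM in MPX and 238, 276 and 228 CPM in CPX, and its groups overlapped, with EA 8 alone well above the rest.

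Herpud1, a membrane protein that helps assemble the complex for ER-associated degradation, measured 126, 150.3 and 222 CPM in EA, against 90.4, 94.6 and 92.6 CPM in MPX and 164, 198 and 125 CPM in CPX. Its MPX libraries lay close together and below all 6 other libraries. Manf, a secreted ER protein that protects stressed cells, measured 57.1, 54.6 and 141.7 CPM in EA, against 49.7, 41.6 and 54.6 CPM in MPX and 72.7, 114.2 and 61.8 CPM in CPX. EA 7 (54.58 CPM) and MPX 7 (54.61 CPM) were level, and all CPX values lay above all MPX values. Xbp1, the transcription factor of the IRE1 arm, measured 304.5, 337 and 508 CPM in EA, against 288, 242 and 284 CPM in MPX and 442, 301 and 402 CPM in CPX. Its pattern was the least like that of the other 9 genes: CPX 6 held the lowest CPX value of Xbp1, where the ratio to the mean of CPX 4 and CPX 8 was 0.71, against 1.04 to 1.96 for the other 9. The root mean square difference of Xbp1 from the mean profile of the others was 0.31 (log2), against 0.15 for Hspa5, the closest.

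Per kilobase of gene length, Calr (186.9 ± 64.5 CPM per kb, SD over 9 libraries) and Hspa5 (167.1 ± 57.6) were the most abundant, and their order held in 7 of 9 libraries. Hsp90b1 (112.9 ± 49.9) and Xbp1 (106.4 ± 26.8) came next and did not separate, since Hsp90b1 was the higher in 4 of 9 libraries. Pdia6 (66.7 ± 15.1), Pdia4 (65.5 ± 31.2) and Herpud1 (60.1 ± 20.3) formed a further set whose order changed between libraries. Dnajb9 (28.9 ± 6.39), Dnajb11 (25.0 ± 7.73) and Manf (20.4 ± 9.51) had the lowest levels per kb. Hspa5 was above Hsp90b1, Xbp1 above Pdia6, and Herpud1 above Dnajb9 in all 9 libraries.

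In EA against MPX, which asks how tissue after electroacupuncture differed from a group not labelled as electroacupuncture, of unstated diet, all 10 genes had higher fitted levels in EA. The log2 differences ran from 0.35 (Dnajb11) to 1.04 (Pdia4), with a median of 0.56 beside 0.01 over all 3958 genes, of which 51.4% were above 0. The 10 were chosen with earlier results of these data known and share the same libraries. Their common direction is therefore a description and not independent support. None of the 10 passed: by edgeR's quasi-likelihood test 0 of 10 had an adjusted p under 0.05 (0% of all genes did), and 2 had an unadjusted p under 0.05, both higher in EA, where 5.1% of all genes had one, 2.1% higher and 3.01% lower. DESeq2 called 0 of the 10 and 1.24% of all genes, and limma voom called 0 of either. Those 2 were Herpud1, at 166.1 ± 49.9 CPM in EA against 92.5 ± 2.11 CPM in MPX (SD, n = 3 each), for a fitted log2 difference of 0.84 ± 0.26 (with its SE; edgeR adjusted p = 0.775), and Pdia4, at 204.3 ± 99.2 CPM in EA against 99.6 ± 30.4 CPM in MPX, a difference of 1.04 ± 0.40 (SE, edgeR adjusted p = 0.775). The ranges lay apart for 3 of 10 (Herpud1, Pdia4 and Xbp1), all higher in EA, against 21.5% of all genes apart in that direction and 19% in the other, so the share of the 10 is near the background. Without EA 8 the median difference was 0.20, Dnajb11 turned to -0.02, Herpud1 had 0.58, and the other 8 were all more than 1.5 times smaller, among them Pdia4 with 0.56 and Hspa5 with 0.06. The median difference was thus less than 0.5 times as large without this 1 library.

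**Figure D2:**
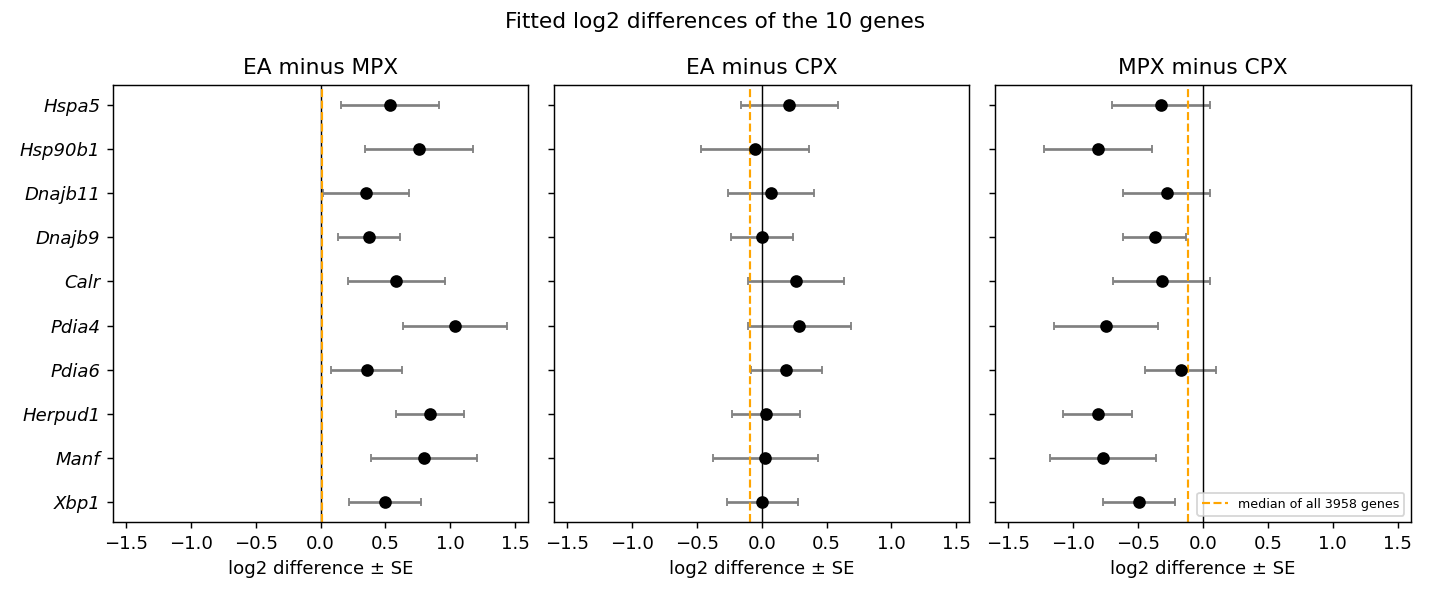
Fitted log2 differences of the 10 genes (points) with 1 SE (bars) for EA minus MPX, EA minus CPX and MPX minus CPX, with the median of all 3958 genes as a dashed line. All 10 points are above 0 in the left panel and below 0 in the right panel, and in the middle panel they lie between -0.05 and 0.29.

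In EA against CPX the 10 genes were close to level. The median log2 difference was 0.05, beside -0.09 over all genes, and it ran from -0.05 (Hsp90b1) to 0.29 (Pdia4); 9 of 10 were above 0, as were 39% of all genes. EdgeR's test called 0 of 10 (0% of all genes), and 0 had an unadjusted p under 0.05, where 2.96% of all genes had one, 0.96% higher and 2% lower. DESeq2 called 0 of the 10 and 0.126% of all genes, and limma voom called 0 of either. Hspa5 averaged 830.3 ± 403 CPM in the EA libraries against 716.8 ± 141 CPM in the CPX libraries (SD, n = 3 each), for a fitted log2 difference of 0.21 ± 0.38 (with its SE; edgeR adjusted p = 0.997). No gene had ranges apart (0 of 10), against 2.1% of all genes higher and 5.08% lower in EA. The direction depended on single libraries: without EA 8 all 10 differences were below 0 (median -0.26), without CPX 8 the median was -0.03, and without CPX 6 it was 0.33. With SEs of 0.24 to 0.42, differences of this size were not detectable, and the result does not show that the groups were alike.

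In MPX against CPX, the groups not labelled as electroacupuncture, all 10 genes had lower fitted levels in MPX, and 0 were above 0, where 40.7% of all genes were. The median log2 difference was -0.43, beside -0.11 over all genes, and it ran from -0.81 (Herpud1 and Hsp90b1) to -0.17 (Pdia6). EdgeR called 0 of 10 (0% of all genes), and 1 of 10, Herpud1, had an unadjusted p under 0.05, where 13.2% of all genes had one, 4.98% higher and 8.21% lower. Limma voom called 0 of the 10 and 0 of all genes. Herpud1 averaged 92.5 ± 2.11 CPM in the MPX libraries against 162.3 ± 36.3 CPM in the CPX libraries (SD, n = 3 each), for a fitted log2 difference of -0.81 ± 0.26 (with its SE; edgeR adjusted p = 0.362). DESeq2 called Herpud1 alone of the 10 (DESeq2 adjusted p = 0.0485), where it called 5.08% of all genes. The ranges lay apart for 4 of 10, Herpud1, Manf, Xbp1 and Dnajb9, all lower in MPX, against 7.71% of all genes in that direction and 8.46% in the other. Without CPX 6, Hsp90b1 had -0.41, Calr -0.06, Hspa5 -0.17, Manf -0.47, Pdia4 -0.44 and Pdia6 -0.08, and Dnajb11 turned to 0.05, while Herpud1 had -0.65, Xbp1 -0.64 and Dnajb9 -0.35. Without MPX 5, Pdia6 had -0.0067 and Calr -0.19. Both comparisons of MPX share the MPX libraries, so the 10 positive differences of EA minus MPX and the 10 negative ones of MPX minus CPX are not independent.

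The secretory load was read from 3 gene lists as summed CPM in each library. The 7 listed antibody genes summed to 1732 to 11530 CPM in EA libraries, 491 to 1217 CPM in MPX and 2791 to 33650 CPM in CPX, and the ranges of EA and CPX lay above that of MPX. EA 8 (11530 CPM) and CPX 6 (33650 CPM), the highest libraries for the folding genes, were also the highest for antibody genes, but in the opposite order. CPX 8 came next with 7565 CPM of antibody transcripts, and its mean for the folding genes was -0.03, beside -0.01 in CPX 4 with 2791 CPM. Igkc, the kappa light chain and the gene with the highest mean over the 9 libraries, had 970, 425.5 and 3461 CPM in EA, against 20.9, 8.80 and 11.7 CPM in MPX and 964, 11820 and 2387 CPM in CPX. Ighm, the IgM heavy chain, had 669, 836 and 2030 CPM in EA, against 459, 1198 and 1026 CPM in MPX and 1607, 6140 and 4667 CPM in CPX. It overlapped between EA and MPX, exceeded Igkc in all libraries but EA 5, EA 8 and CPX 6, and made up nearly all of the antibody sum in MPX. Ighg1, an IgG heavy chain, was high in EA 5 and EA 8 (1515 and 2073 CPM), low in EA 7 (7.96 CPM), at most 0.78 CPM in MPX, and at 12.03, 8210 and 3.07 CPM in CPX 4, CPX 6 and CPX 8. The whole antibody sum of EA 5 was 3905 CPM, below those of CPX 8, EA 8 and CPX 6, and its mean for the folding genes was -0.04. Antibody genes have close relatives, so reads could be split among them and the sums are uncertain.

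The 29 listed genes of collagen and other matrix summed to 15300 to 20310 CPM in EA libraries and 25700 to 31450 CPM in MPX, with no overlap, and to 7306 to 30950 CPM in CPX. The matrix sums were thus higher in MPX than in EA, CPX 8 (30950 CPM) lay within the MPX range, and CPX 6 had the second highest mean of the folding genes beside the lowest matrix sum. Sparc, a collagen-binding matrix protein with the highest mean of the list over the 9 libraries, measured 2270, 2061 and 1518 CPM in EA, against 3965, 6432 and 5414 CPM in MPX and 3311, 789 and 4110 CPM in CPX. The 17 listed adipocyte products, such as Cfd (adipsin) and Lpl (lipoprotein lipase), summed to 27760 to 37650 CPM in EA libraries, 34950 to 38980 CPM in MPX and 13790 to 68360 CPM in CPX. EA 8 and CPX 8 had nearly the same adipocyte sum (37650 and 37390 CPM) at very different levels of the folding genes, but the sums differed in makeup. Lpl had 3216 CPM in EA 8 against 10740 CPM in CPX 8. Apoe, also in this list, had 8955 against 3244 CPM, and Cfd 11040 against 9091 CPM. As a mean of centred log2 levels, the list stood at -0.09 in EA 8 and 0.30 in CPX 8. The parts that these loads play in the levels of the folding genes were not tested.

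**Figure D3:**
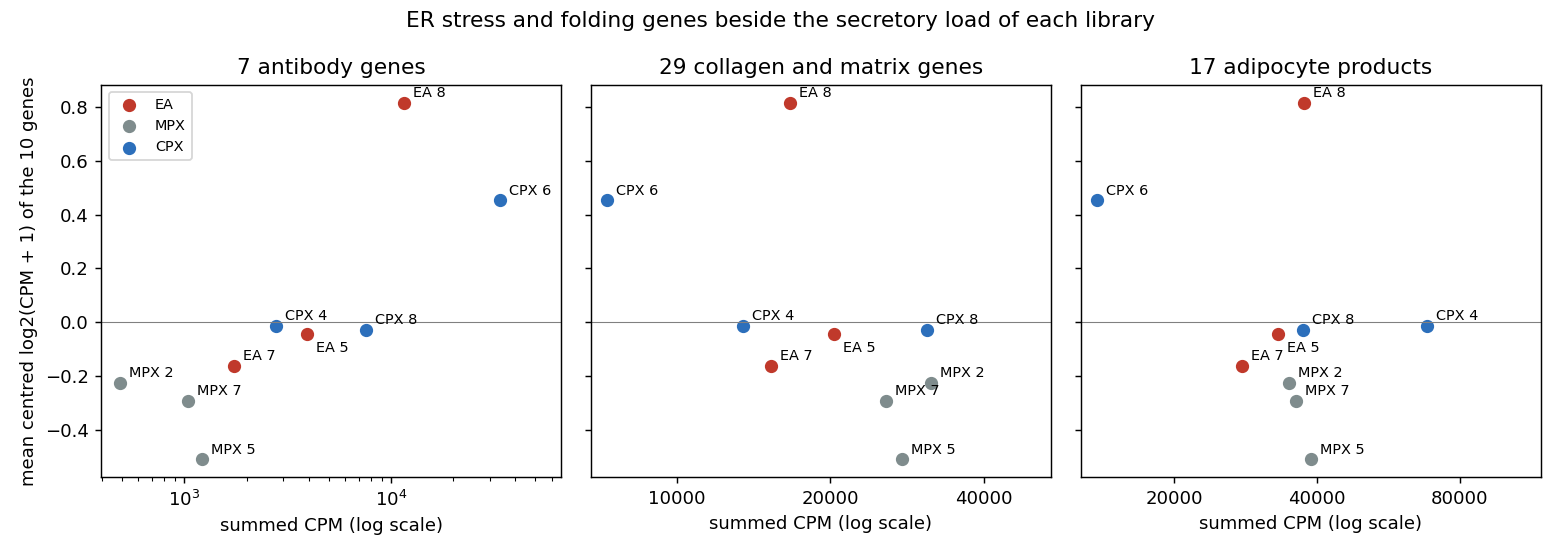
Mean centred log2(CPM + 1) of the 10 genes (vertical axis) against the summed CPM of 7 antibody, 29 collagen and matrix, and 17 adipocyte product genes (horizontal axes, log scale), 1 point per library coloured by group. EA 8 and CPX 6 lie at the upper right for antibody genes, with CPX 8 below them, and the MPX points lie at the lower left there and at the lower right for matrix genes.

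Markers of other cells also differed between libraries. The 2 listed plasma cell markers of 15, Jchain and Igkc, of which Igkc is also in the antibody list, summed to 502 to 3795 CPM in EA libraries, 10.04 to 25.97 CPM in MPX and 1160 to 13370 CPM in CPX. The 10 listed B cell markers of 13 summed to 2558 to 5519 CPM in EA libraries, 932 to 1774 CPM in MPX and 762 to 10670 CPM in CPX. Cd74, which other antigen-presenting cells also express, carried much of these sums, whereas Cd79a, a part of the B cell receptor, had 87.0, 144.0 and 232 CPM in EA, against 1.63, 3.48 and 0.64 CPM in MPX and 2.37, 489 and 4.96 CPM in CPX 4, CPX 6 and CPX 8. The 12 listed macrophage markers of 16 summed to 3117 to 7397 CPM in EA libraries, 1533 to 4522 CPM in MPX and 1621 to 4840 CPM in CPX, highest in EA 8. The 3 listed mast cell markers of 7 summed to 213 to 524 CPM in EA libraries, 42.2 to 182 CPM in MPX and 140.1 to 427 CPM in CPX. The 18 adipocyte markers summed to 35460 to 53750 CPM in EA libraries, 57690 to 68980 CPM in MPX and 8962 to 99720 CPM in CPX, lowest in CPX 6 and next lowest in EA 8. Of the 12 endothelial markers 11 were listed, and Fabp4, which is also in the adipocyte list, made up most of their sum. Without it, a choice made after seeing the data, the other 10 summed to 1651 to 2182 CPM in EA libraries, 2141 to 3066 CPM in MPX and 1331 to 2186 CPM in CPX, lowest in CPX 6 and CPX 4; with it the sums were 7712 to 12640 CPM in EA libraries, 14500 to 16960 CPM in MPX and 2831 to 22550 CPM in CPX. The 12 fibroblast markers of 14 summed to 6108 to 9459 CPM in EA libraries, 6769 to 15530 CPM in MPX and 3458 to 14220 CPM in CPX. The part of these cells in the differences of the folding genes was not tested.

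In EA against MPX, the other ER folding, translocon, degradation and transport lists had median differences nearer to 0 than that of the 10. The 10 were chosen with earlier results of these data known, so their larger median is a description and not a trait shown to be particular to them. In this comparison 13 of 21 other ER folding genes were above 0 (median log2 difference 0.11), and 14 of 23 translocon and glycosylation genes (0.05), but 8 of 20 degradation genes (-0.07) and 12 of 28 COPII and COPI transport genes (-0.05). EdgeR called 0 genes of each of these lists, and at an unadjusted p under 0.05 there were only 2, Sec23a and Tfg of the transport list, both lower in EA; DESeq2 called Sec23a (DESeq2 adjusted p = 0.0406). Canx (calnexin, a membrane-bound lectin chaperone like Calr) averaged 407.5 ± 100 CPM in the EA libraries against 284.6 ± 33.0 CPM in the MPX libraries, for a fitted log2 difference of 0.52 ± 0.26 (with its SE; edgeR adjusted p = 0.775), whereas Calu (calumenin, a calcium-binding protein of the secretory pathway) averaged 308.8 ± 28.9 CPM in the EA libraries against 444.4 ± 27.3 CPM in the MPX libraries, a difference of -0.53 ± 0.27 (SE, edgeR adjusted p = 0.775). Sec23a, a subunit of the inner COPII coat, averaged 59.2 ± 6.26 CPM in the EA libraries against 91.8 ± 7.52 CPM in the MPX libraries, a difference of -0.63 ± 0.19 (SE, edgeR adjusted p = 0.775). The EA and MPX ranges of Canx, Calu and Sec23a lay apart, as did those of 21.5% of all genes higher and 19% lower in EA. Canx, Calu and Sec23a were named for the small p-values in their lists.

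Of the 6 listed genes for sensors and their activation, 3 were above 0 in EA against MPX (median log2 difference -0.08), with 0 called by edgeR and 0 at an unadjusted p under 0.05. Among them was the sensor gene Atf6, at 109.9 ± 17.8 CPM in the EA libraries against 84.8 ± 6.62 CPM in the MPX libraries, for a fitted log2 difference of 0.37 ± 0.25 (with its SE; edgeR adjusted p = 0.775); the genes for IRE1 and PERK were not analysed here. The PERK and ATF4 list leaned the other way from the 10 genes in EA against MPX. It had 4 of 21 above 0, where 51.4% of all genes were, 17 below (median -0.16), and 0 called by edgeR. Its member Ppp1r15b, a regulatory subunit of the phosphatase that reverses the PERK signal, averaged 185.8 ± 17.5 CPM in the EA libraries against 129.1 ± 19.2 CPM in the MPX libraries, a difference of 0.52 ± 0.22 (SE, edgeR adjusted p = 0.775). Slc3a2, the heavy chain of amino acid transporters and a target of ATF4, averaged 179.8 ± 5.90 CPM in the EA libraries against 247 ± 47.2 CPM in the MPX libraries, a difference of -0.46 ± 0.20 (SE, edgeR adjusted p = 0.775). In EA 8 and CPX 6 this list stood at -0.16 and -0.54 (mean centred log2), below the mean of the 9 libraries, where the 10 folding genes stood highest.

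The 22 listed cytosolic and mitochondrial heat shock genes, which respond to unfolded protein outside the ER, had 18 members above 0 in EA against MPX (median log2 difference 0.45), where 51.4% of all genes were. At an unadjusted p under 0.05, 6 were higher and 1 lower, beside 2.1% and 3.01% of all genes, and edgeR called 0. Hsph1, a cytosolic Hsp70 partner, averaged 235.5 ± 125 CPM in the EA libraries against 61.6 ± 39.0 CPM in the MPX libraries, a difference of 1.94 ± 0.52 (SE, edgeR adjusted p = 0.775, DESeq2 adjusted p = 0.0159). By library the list was highest in CPX 4 (0.45) and EA 8 (0.32) and lowest in MPX 2 (-0.34), so its order was not that of the ER genes, of which CPX 6 was second. Among the 7 listed collagen folding genes 2 were above 0 (median -0.29), and P4ha1, a collagen prolyl hydroxylase, averaged 107.2 ± 30.7 CPM in the EA libraries against 55.4 ± 13.5 CPM in the MPX libraries, a difference of 0.95 ± 0.29 (SE, edgeR adjusted p = 0.775). CPX 6 held the lowest mean of this list (-0.82), and EA 8 the highest (0.28).

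In MPX against CPX, 22 of 23 translocon and glycosylation genes were below 0 (median -0.32), as were 15 of 21 other ER folding genes (-0.20), whereas 11 of 20 degradation genes (0.06) and 14 of 28 transport genes (0.01) were above 0. In EA against CPX the same 4 lists had medians of -0.31, -0.12, -0.07 and -0.11, with 1 of 23, 5 of 21, 7 of 20 and 9 of 28 members above 0. Over all genes 40.7% were above 0 in MPX against CPX (median -0.11) and 39% in EA against CPX (median -0.09). The degradation and transport lists thus lay near the median of all genes in EA against CPX. EdgeR called 0 genes in each of the 4 lists in both comparisons. Spcs2, a signal peptidase subunit, averaged 79.2 ± 11.5 CPM in the MPX libraries against 149.5 ± 48.8 CPM in the CPX libraries, a difference of -0.92 ± 0.28 (SE, edgeR adjusted p = 0.362, DESeq2 adjusted p = 0.0381). Slc3a2 of the ATF4 list averaged 247 ± 47.2 CPM in the MPX libraries against 142 ± 17.7 CPM in the CPX libraries, a difference of 0.80 ± 0.20 (SE, edgeR adjusted p = 0.362, DESeq2 adjusted p = 0.0027).

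**Figure D4:**
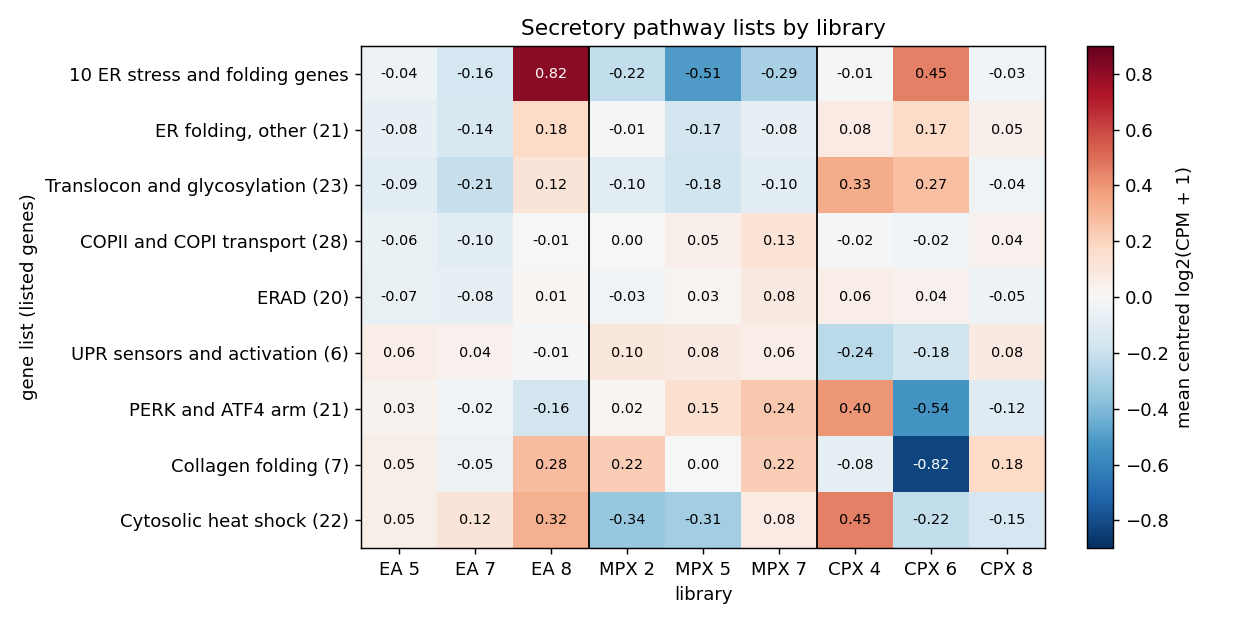
Mean centred log2(CPM + 1) of each gene list (rows, number of listed genes in brackets) in each library (columns), with red above and blue below the mean of the 9 libraries. The 10 ER stress and folding genes reach 0.82 in EA 8 and -0.51 in MPX 5, while the degradation and transport lists stay between -0.10 and 0.13.

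The genes whose profile over the 9 libraries lay nearest to the mean of the 10 were Rpn1 (a subunit of the oligosaccharyl transferase), Canx, Pdia3 (a disulfide isomerase that works with Calr and Canx), Bst2 and Tra2a. Their root mean square differences were 0.12, 0.14, 0.14, 0.16 and 0.18 on the log2 scale, against a median of 0.54 over 3948 other genes. Pdia3 measured 422, 364 and 672 CPM in EA 5, EA 7 and EA 8, 444, 304 and 360.4 CPM in the MPX libraries and 412, 711 and 462 CPM in the CPX libraries. Nearest to Hspa5 alone were Rpn1, Pdia3, Sec61a1 (the pore of the translocon), Snx6 and Atf6, at 0.21 to 0.23.

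Of all listed genes, 9 had an ERSE in their promoter window. Besides Hspa5, Hsp90b1, Calr and Pdia6 these were Canx, Dnajc3, Syvn1, Acacb and Hnrnpa3, a group picked by sequence alone. All 9, of which 4 are the members already described, had log2 differences above 0 in EA minus MPX, from 0.28 to 1.77, where 51.4% of all genes did. The count for the 9 was made with EA 8 included and was not repeated without it. Without EA 8 the member Hspa5 had 0.06, and the EA 5 and EA 7 values of Syvn1 lay within its MPX range. An ERSE-II was found for 4 listed genes, of which Herpud1 (0.84), Rbm39 (0.46) and Dnajb11 (0.35) were above 0 and Nucb1 (-0.12) below. Dnajc3, an ER helper of BiP that also inhibits PERK, measured 207, 202 and 278 CPM in EA, against 181, 194 and 191 CPM in MPX and 213, 303 and 285 CPM in CPX. Syvn1, the ubiquitin ligase of ER-associated degradation, measured 80.5, 97.2 and 165 CPM in EA, against 78.0, 101.4 and 103 CPM in MPX and 51.5, 126 and 74.1 CPM in CPX. Both had EA 8 or CPX 6 as their highest library. Acacb, an acetyl-CoA carboxylase of lipid metabolism, had the largest log2 difference of the 9 (1.77) but another pattern, with 711, 482 and 443 CPM in EA, against 181, 187 and 111 CPM in MPX and 497, 114 and 383 CPM in CPX. Among the 3 members without an exact match, Pdia4, whose window did not reach the annotated gene, had a log2 difference of 1.04 in EA minus MPX. Xbp1 had 0.50 and Dnajb9 0.37. The 6 members with a match ran from 0.35 to 0.84.

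As a limit of counting, 10.3% of the exonic bases of Hsp90b1 overlap a transcribed pseudogene on the opposite strand in GENCODE M21, and 4.7% of those of Manf an antisense gene. The strand setting is not given in the sources used here, so reads of such pairs cannot be told apart.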

How the data were processed

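The authors deposited raw counts per gene for 9 adipose libraries, beside annotation columns (name, position, length), per the file headers. Reads were aligned with HISAT2 2.0.5 to mm10, per the submitters' processing notes; for the counter, the annotation and the strand the sources used here give nothing. The table lists 3958 genes by falling total (at least 8471 counts) and breaks off in its final row, so less abundant genes were not analysed here. Columns were matched to libraries by title; 11 damaged gene names were restored from the gene ID.

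All libraries entered 1 edgeR 4.0.16 fit (R 4.3.3) with a mean per group, TMM, filterByExpr (3958 genes kept) and robust quasi-likelihood tests, adjusted after Benjamini-Hochberg over all genes. SE was derived from the log2 difference and its F statistic. DESeq2 1.42.0, limma 3.58.1 voom, other scalings and filters, left-out libraries and number as a block were alternatives. The method was tested on simulated counts. With 3 against 3, an exact permutation test cannot go below 0.1. No pair of libraries within a group was near-identical.

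The members, lists and naming rule were chosen with earlier results of these data known. Named were the 10 members, some of the up to 2 genes with the smallest p in each pathway list and comparison, the most abundant genes of the load lists, and the 5 nearest profiles to the mean and to Hspa5; Acacb, Dnajc3, Syvn1, Hnrnpa3, Nucb1 and Rbm39 were named for their promoters, and Fabp4, Cd74 and Cd79a for their part in marker sums, after their values were seen. Marker lists for T cells, pancreas, other epithelia, epididymis and testis, skeletal muscle and retina had 0 listed genes and were not analysed here. Retinas are named in the labels' extraction protocol, but the tissue label is adipose.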

Additional observations from a re-analysis of the deposited data

How the results depend on the processing

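The member median kept its direction in EA against MPX and in MPX against CPX under all alternatives run. With single libraries left out it ran from 0.20 to 0.78 in EA against MPX, from -0.26 to 0.33 in EA against CPX and from -0.46 to -0.36 in MPX against CPX; with EA 8 and CPX 6 both left out, chosen after seeing the data, it was 0.19, -0.091 and -0.38. In no alternative did edgeR call a member; DESeq2 called 1, Herpud1, in MPX against CPX.

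Counts of calls over all genes moved from 0. For EA against MPX they were 49 with DESeq2, 84 with only these groups, 80 with CPX 4 and CPX 6 left out, and 0 to 23 with single libraries left out (23 without CPX 6). For EA against CPX they were 5 with DESeq2 and 0 to 12 (12 without CPX 6), and for MPX against CPX 201 with DESeq2 and 0 to 168 (168 without CPX 8). With the replicate block, EA against MPX had 6 calls, a member median of 0.26 and Dnajb11 at -1e-04. EA and MPX share only the numbers 5 and 7, whose deviations correlated at 0.022 and 0.125, so the numbers are not shown to pair samples.

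Single libraries left out gave, for EA against CPX, -0.23 to 0.20 (Herpud1), -0.57 to 0.32 (Manf), -0.48 to 0.34 (Hsp90b1), -0.26 to 0.43 (Hspa5), -0.25 to 0.15 (Xbp1), -0.11 to 0.51 (Calr), -0.19 to 0.59 (Pdia4), -0.090 to 0.35 (Pdia6), -0.26 to 0.19 (Dnajb9) and -0.30 to 0.39 (Dnajb11), and for Dnajb11 -0.021 to 0.56 in EA against MPX and -0.43 to 0.049 in MPX against CPX. Other reversals in EA against CPX were Hsp90b1 with upper quartile scaling (0.064), with no scaling (0.095) and without CPX 4 and CPX 6 (0.17), and Xbp1 in the last (-0.080). Xbp1 and Dnajb9 turned with TMM without antibody genes (-0.0025 and -0.0018), with only these groups (-0.0024 and -0.0015) and with limma voom (-0.023 and -0.022), which also turned Manf (-0.12). With EA 8 and CPX 6 left out, Herpud1 (-0.084), Manf (-0.28), Hspa5 (-0.12), Xbp1 (-0.41), Pdia6 (-0.021) and Dnajb9 (-0.26) turned in EA against CPX, and Dnajb11 in EA against MPX (-0.037) and MPX against CPX (0.049); without CPX 4 and CPX 6 Dnajb11 was 0.21 in the last. The causes were not tested.

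Leaving out the scaling moved the median of all genes by 0.19 in EA against CPX and 0.11 in MPX against CPX, and upper quartile scaling by 0.12 in EA against CPX; without CPX 4 it moved by 0.12 and without CPX 4 and CPX 6 by 0.15 in MPX against CPX. The filters removed at most 3 genes and say nothing about stability. Without its most abundant gene, the matrix sum averaged 23000 CPM in MPX, and the adipocyte sum 23600 CPM in EA and 32180 CPM in MPX.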
